A study of Mus musculus with 38 samples.

Results

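The genes described here encode secreted enzymes and granule proteins of the acinar cells of the pancreas, and their values came from spleen RNA. The 10 members were the trypsinogens Prss1, Prss2 and Try4, the chymotrypsinogen Ctrb1, the amylase Amy1, the lipases Pnlip and Cel, the colipase Clps, the granule membrane protein Gp2 and the ribonuclease Rnase1. They were found by the RefSeq transcript printed with each array row, 1 probe per gene, among 21618 distinct probes, of which 6518 had a gene symbol in RefSeq (6512 different genes). The genes were chosen with earlier results of the same arrays known, irradiated against sham included, so their values in that contrast are a description and carry no test. Male mice 10 to 14 weeks old, by the labels, received 10 rad (10 cGy) of X-rays or a sham exposure, and the spleen was taken 3.5 h later. Each of 38 two-colour arrays set the RNA of 1 irradiated mouse against that of 1 sham mouse of the same strain, paired at random, and each pair was to be hybridized again with the dyes exchanged. The strains, spelled as in the labels, were A/J, B6.C and BalbxJ with 8 arrays each, C3H with 6, and BI6Jx and DBA/2J with 4 each. Irradiated RNA carried Cy5 on 19 arrays and Cy3 on 19, split evenly within every strain. The labels do not say which arrays hold the same pair of mice, nor how many mice there were, and they name no engineered allele.

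Acinar cells make up most of the exocrine pancreas and store digestive enzymes in zymogen granules until a meal releases them into the duct. Proteases are stored as inactive precursors, while amylase and most lipases are made in active form. The genes are switched on together in acinar cells by a complex built around the factor PTF1A, and they are known as some of the most abundant messages of that tissue. The spleen is a lymphoid and blood-filtering organ that lies against the tail of the pancreas. In bulk tissue, fewer cells of a type and less RNA per cell cannot be told apart.

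The stretch just upstream of the start of transcription is shown for the 3 trypsinogens, because they are close relatives whose array values were only partly alike, and for Ctrb1 and Cel, because with Prss2 they hold a match to the second element of the motif bound by the PTF1 complex. Each line gives the 250 bases before the start, 5′ to 3′ on the strand of the gene, from RefSeq windows on GRCm38.p6. Capitals mark CANNTG (an E-box), TGGGAAA or its reverse TTTCCCA, and TATAAA, which was added to the search after the windows had been seen.
Prss1, chr6:41458680-41458929, plus strand: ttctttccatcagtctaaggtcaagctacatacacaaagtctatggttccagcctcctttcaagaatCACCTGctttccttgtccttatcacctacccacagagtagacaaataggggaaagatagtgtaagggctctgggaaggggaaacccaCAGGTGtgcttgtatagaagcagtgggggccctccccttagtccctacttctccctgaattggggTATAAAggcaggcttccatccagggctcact
Try4, chr6:41302022-41302271, plus strand: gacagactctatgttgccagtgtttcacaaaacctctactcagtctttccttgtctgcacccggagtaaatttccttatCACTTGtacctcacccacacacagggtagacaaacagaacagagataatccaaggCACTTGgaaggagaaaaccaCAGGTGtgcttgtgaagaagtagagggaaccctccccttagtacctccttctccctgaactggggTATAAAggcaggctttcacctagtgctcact
Prss2, chr6:41521526-41521775, plus strand: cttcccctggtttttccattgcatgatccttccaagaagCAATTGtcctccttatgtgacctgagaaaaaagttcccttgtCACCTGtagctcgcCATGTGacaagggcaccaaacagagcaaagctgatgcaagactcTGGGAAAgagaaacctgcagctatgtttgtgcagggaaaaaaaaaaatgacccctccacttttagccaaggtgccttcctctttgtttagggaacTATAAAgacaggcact
Ctrb1, chr8:111691011-111691260, minus strand: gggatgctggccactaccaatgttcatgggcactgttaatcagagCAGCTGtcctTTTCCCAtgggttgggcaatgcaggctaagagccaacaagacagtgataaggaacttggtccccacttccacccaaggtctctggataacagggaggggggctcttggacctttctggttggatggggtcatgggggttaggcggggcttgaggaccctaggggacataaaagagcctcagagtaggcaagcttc
Cel, chr2:28563404-28563653, minus strand: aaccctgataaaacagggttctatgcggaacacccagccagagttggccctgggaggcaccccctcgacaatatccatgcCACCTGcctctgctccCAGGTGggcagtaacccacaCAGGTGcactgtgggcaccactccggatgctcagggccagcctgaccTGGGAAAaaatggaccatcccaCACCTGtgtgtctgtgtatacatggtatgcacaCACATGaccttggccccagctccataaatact

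Windows were held for 9 of the 10 genes, and Clps had none. All 3 trypsinogen genes lie on chromosome 6 (GRCm38.p6), with Try4 at chr6:41302272-41305533, Prss1 at chr6:41458930-41463786 and Prss2 at chr6:41521776-41525079. Aligned without gaps, Prss1 and Try4 had the same base at 86 of the last 100 positions and at 139 of 250, against 22 of the last 100 for Prss1 and Prss2 and 29 for Prss2 and Try4. TGGGAAA or TTTCCCA stood in 3 of 10 member windows (Amy1 has 2 windows), those of Prss2 at position -111, Cel at -87 and Ctrb1 at -195, and in 6.82% of all 32851 windows. An E-box stood in 6 of 10 member windows and in 66.2% of all windows. TATAAA stood in 6 of 10 member windows, at -31 in both Prss1 and Try4 and at -16 in Prss2, and in 7.59% of all windows. The ungapped comparison above was anchored on the annotated starts, so by the place of TATAAA Prss2 was compared out of step. No shifted alignment was made, and the low counts with Prss2 are not read as a lack of likeness. These are matches of letters, not sites of binding.

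The deposited number for each spot and array was a signed value. The sources used here give neither its scale and log base nor which dye stands on top. Each array was centred on its median, and the sign was turned where irradiated RNA carried Cy3, so that a turned value points the same way on every array. Were the numbers Cy5 over Cy3, a negative turned value would mean less signal from irradiated than from sham RNA. This could not be settled, and no fold change is given. The direction of arrays 50 and 53 of B6.C and array 97 of BI6Jx is in particular doubt, since each correlated below -0.3 with at least 3 others of its own dye orientation (4, 3 and 8 arrays). Other arrays fell below -0.3 with fewer others, among them arrays 86 and 88 of A/J and 95 of BI6Jx with 2 each. Their lowest r was -0.59, -0.66 and -0.57, beside -0.41, -0.45 and -0.66 for arrays 50, 53 and 97. The signs of arrays 86, 88 and 95 were not turned in any setting, so their direction is not settled here either. Values of single arrays, and all counts, percentiles, correlations and captions where nothing else is said, have the signs as labelled. The means over strains, the values of BI6Jx and some of the counts that turn on arrays 50, 53 and 97 are given also with those signs turned and without those arrays. The 3 trypsinogens are close paralogs, and Amy1, the salivary amylase gene, closely resembles the pancreatic amylase genes, so a probe may have taken up signal from a related transcript, which was not tested.

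Each member had a value on 32 (Clps) to 38 (Prss1) of the 38 arrays, with a median of 36, against a median of 32 over all probes. The study had removed weak and poor spots, so a value shows that the spot passed those filters in a spleen sample. In all strains most member values were present, with 40 of 40 possible in BI6Jx, 39 of 40 in DBA/2J, 72 of 80 in A/J, 76 of 80 in B6.C, 74 of 80 in BalbxJ and 54 of 60 in C3H. Of the lymphoid markers, all 12 B cell genes that had a probe were present on 28 to 38 arrays, with a median of 35. The 13 T cell genes that had a probe were present on 8 to 37 arrays, with a median of 28.

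For each strain, the mean over its Cy5 arrays and the turned mean over its Cy3 arrays were averaged with equal weight, so that a constant dye bias cancels. The mean of these strain values was negative for all 10 members, while 51.3% of the 14513 probes tested had a mean below 0. Because the contrast was known when the genes were chosen, nothing is read from that count. The median of the 10 means was -0.57, beside -0.00675 over all probes, and the single means ran from -0.73 for Prss2 to -0.32 for Rnase1. With the signs of arrays 50, 53 and 97 turned the median was -0.13, and without them it was -0.32, with all 10 means negative in both cases. BI6Jx was the strain that moved most under either choice, with the values given below. Across all probes, limma called 0 of 14513 (0%) for irradiated against sham at an adjusted p under 0.05, and 1191 (8.21%) at an unadjusted p under 0.05, of which 572 (3.94% of all probes) were on the negative side. A strain value below 0 in at least 5 of 6 strains was found, with signs as labelled, for 6 of 10 members and for 15.1% of all probes. With the signs of arrays 50, 53 and 97 turned it was found for 2 of 10 members (all probes 9.66%), and without those arrays for 2 of 10 (all probes 12.2%).

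**Figure D1:**
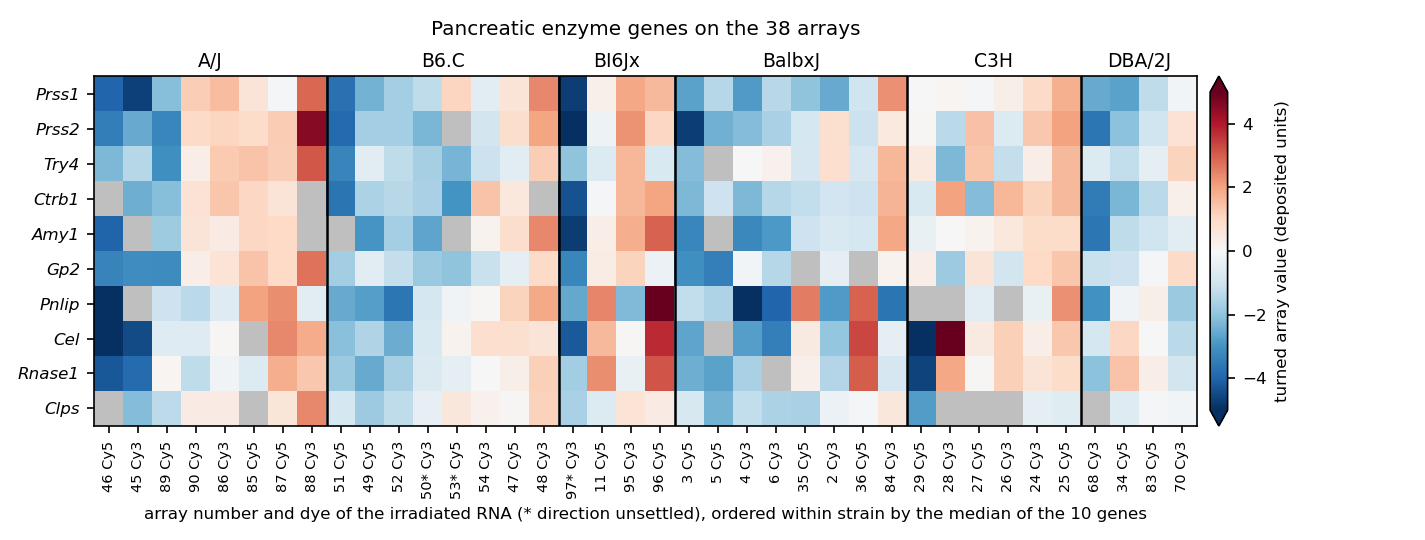
Heat map of the turned value (deposited units, colour clipped at 5 in either direction) of each of the 10 genes in rows on each of the 38 arrays in columns, grouped by strain and ordered within a strain by the median of the genes, with grey where no value was present and the dye of the irradiated RNA beside the array number. Whole columns take 1 colour, such as array 46 of A/J with values from -5.05 to -2.24 and array 97 of BI6Jx with values from -5.94 to -1.62, while array 88 of A/J is positive for every measured gene but Pnlip.

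The trypsinogens are the precursors of trypsin, the protease that activates the other pancreatic proteases. In A/J spleens, turned values of Prss1 had a lowest of -4.69, a median of 0.29 and a highest of 2.87 over 8 arrays. In B6.C they were -3.73, -0.92 and 2.41 over 8 arrays, and in BalbxJ -2.82, -1.73 and 2.27 over 8. The A/J values thus fell on both sides of 0 in equal number, 4 and 4, while in BalbxJ 7 of 8 were negative. In C3H the lowest, median and highest were -0.07, 0.20 and 1.79 over 6 arrays, with 4 positive. The 4 BI6Jx arrays gave 1.95, 1.64, 0.24 and -4.71, the last from array 97, whose direction is in doubt. All 4 DBA/2J values were negative, at -2.66, -2.53, -1.27 and -0.13. The Prss1 strain values were -1.65 in DBA/2J, -1.45 in BalbxJ, -0.68 in B6.C, -0.57 in A/J, -0.22 in BI6Jx and 0.50 in C3H, with a mean of -0.68 ± 0.79 (SD, n = 6 strains). The Prss1 mean was -0.28 with the signs of the 3 doubtful arrays turned, -0.43 without them and -0.40 without array 97 alone. The Prss1 probe was among the lowest 1% of all values on 10 arrays and among the highest 1% on 5.

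Prss2, an anionic trypsinogen, had a mean of -0.73 ± 0.79 (SD, n = 6 strains), the lowest of the 10 genes with signs as labelled. The Prss2 mean was -0.14 with the doubtful arrays turned, where Clps was lowest (-0.36), -0.35 without them, where Pnlip was lowest (-0.55), and -0.39 without array 97 alone. Its turned values had a lowest of -3.47, a median of 0.95 and a highest of 4.53 over 8 A/J arrays, and -3.88, -1.71 and 1.99 over 7 B6.C arrays. In BalbxJ they were -4.70, -1.35 and 0.81 over 8 arrays, and in C3H -1.36, 0.72 and 2.00 over 6. The 4 BI6Jx arrays gave 2.25, 1.04, -0.25 and -5.94, and the 4 DBA/2J arrays 0.72, -0.98, -2.04 and -3.60. The spread within every strain thus crossed 0. Try4, a further trypsinogen, lay nearer to 0, with a mean of -0.35 ± 0.46 (SD, n = 6 strains) and array values from -3.32 on array 51 of B6.C to 3.10 on array 88 of A/J. Its B6.C value of -1.18 stood below the other strains, which lay between -0.43 and 0.09, and 7 of its 8 B6.C arrays were negative. With the signs of arrays 50 and 53 turned, the B6.C value of Try4 was -0.19, and without those arrays -0.91. The Try4 mean over strains was -0.02 with the 3 doubtful arrays turned, -0.15 without them and -0.20 without array 97 alone.

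Ctrb1 encodes chymotrypsinogen B, a protease precursor that trypsin activates. Its mean was -0.63 ± 0.86 (SD, n = 6 strains), with strain values of -1.73 in DBA/2J, -1.23 in B6.C, -1.07 in BalbxJ, -0.19 in BI6Jx, -0.13 in A/J and 0.58 in C3H. The Ctrb1 mean was -0.05 with the doubtful arrays turned, -0.30 without them and -0.38 without array 97 alone. The B6.C value of Ctrb1 was 0.07 with the signs of arrays 50 and 53 turned and -0.77 without them. Its array values ran from -4.36 on array 97 of BI6Jx to 2.02 on array 28 of C3H, with 21 of 35 negative. The amylase Amy1, which digests starch, followed Prss1 closely: its DBA/2J arrays were all negative (a lowest of -3.61, a median of -1.14 and a highest of -0.52), 6 of 7 BalbxJ arrays were negative, and 5 of 6 C3H arrays were positive. Amy1 had a mean of -0.60 ± 0.82 (SD, n = 6 strains), with its extreme arrays both in BI6Jx, -4.76 on array 97 and 2.96 on array 96, and its mean was -0.09 with the doubtful arrays turned, -0.26 without them and -0.32 without array 97 alone. Gp2 is the main glycoprotein of the zymogen granule membrane and is also known from M cells of the gut. Gp2 averaged -0.67 ± 0.68 (SD, n = 6 strains), lowest in BalbxJ at -1.86 and highest in C3H at 0.10, and 7 of 8 B6.C arrays and 5 of 6 BalbxJ arrays were negative. The Gp2 mean was -0.23 with the doubtful arrays turned and -0.43 without them.

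Pnlip, pancreatic triacylglycerol lipase, depends on the colipase Clps to work at the surface of fat droplets, and Cel is the bile salt-activated lipase. Pnlip had array values from -5.36 on array 4 of BalbxJ to 5.60 on array 96 of BI6Jx and a mean of -0.54 ± 0.92 (SD, n = 6 strains). The 2 dye orientations of Pnlip did not agree: its mean over strains was 0.69 from Cy5 arrays alone and -1.77 from turned Cy3 arrays alone. The Pnlip mean was -0.28 with the doubtful arrays turned and -0.55 without them, and the Clps mean -0.36 and -0.41. Clps was the only member negative in 6 of 6 strains, from -1.09 in C3H to -0.04 in A/J, with a mean of -0.48 ± 0.42 (SD, n = 6 strains). In BI6Jx its value of -0.30 was 0.51 with the sign of array 97 turned and 0.28 without that array. Its C3H value came from 3 arrays (-0.46, -0.61 and -2.81) and its DBA/2J value from 3 (-0.65, -0.14 and -0.09), and over all arrays Clps varied least, with an SD of 1.12 at the 61.7th percentile of the probes tested. Cel varied most, with an SD of 3.48 at the 99.6th percentile. Its C3H arrays gave 1.35, 1.18, 0.45 and 0.34, beside 8.68 on array 28 and -14.4 on array 29. Before turning, those last values were both negative, so they point opposite ways only through the dye orientation. The Cel strain values were -0.94 in A/J, -0.88 in BalbxJ, -0.54 in B6.C, -0.40 in C3H, -0.30 in DBA/2J and 0.29 in BI6Jx, with a mean of -0.46 ± 0.45 (SD, n = 6 strains). The Cel mean rests on single arrays: it was -0.04 without array 29 of C3H, -0.69 without array 25 of C3H, -0.30 without array 46 of A/J and -0.28 without array 97 of BI6Jx. It was -0.09 with the doubtful arrays turned and -0.30 without them.

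Rnase1, the secreted pancreatic ribonuclease, is also made by the lining of blood vessels, so it marks acinar cells less strictly than the others. Its mean of -0.32 ± 0.67 (SD, n = 6 strains) was nearest to 0 of the 10 with signs as labelled, with strain values of -0.89 in BalbxJ, -0.87 in A/J, -0.72 in B6.C, -0.31 in DBA/2J, 0.02 in C3H and 0.84 in BI6Jx. The Rnase1 mean was -0.13 with the doubtful arrays turned, where those of Try4, Ctrb1, Cel and Amy1 were nearer to 0, -0.27 without them and -0.18 without array 29 of C3H. Array 29 of C3H again held its lowest value, -4.62, and array 96 of BI6Jx its highest, 3.16. The SDs over arrays of the remaining members stood between the 83.9th (Try4) and 96.8th (Pnlip) percentile of the probes tested.

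**Figure D2:**
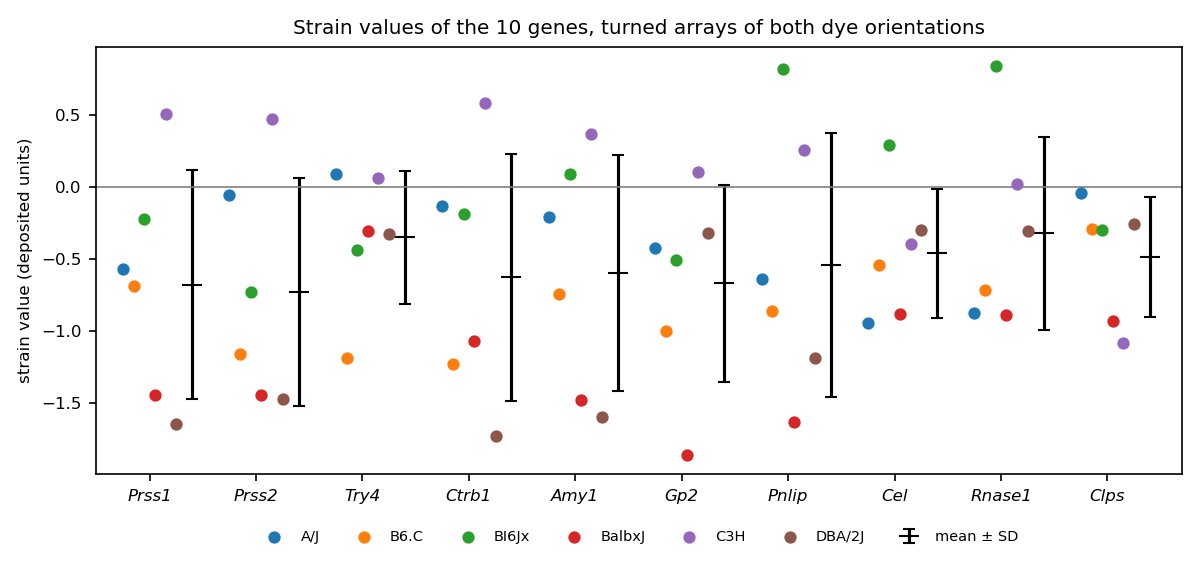
Strain value (deposited units) of each of the 10 genes, 1 dot per strain, with the mean and SD over the 6 strains as black bars. BalbxJ, B6.C and DBA/2J lie below 0 for every gene, C3H lies above 0 for 8 of 10, and BI6Jx is above 0 for Amy1, Pnlip, Cel and Rnase1.

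The strains differed in how the members lay. In BalbxJ all 10 members were negative, with a median of -1.26 and a range from -1.86 (Gp2) to -0.30 (Try4), while 44.5% of all probes were negative in that strain. All 10 were negative in DBA/2J (median -0.76, all probes 44.3%) and in B6.C (median -0.80, all probes 56.3%). In A/J 9 of 10 were negative, with a median of -0.31 (all probes 55.6%), but the 8 arrays behind it had member medians from -3.99 to 2.55. Of these array medians 5 were positive and 3 negative, and their own median was 0.46. In BI6Jx 6 were negative and 4 positive (median -0.21, all probes 53.6%). With the sign of array 97 turned the BI6Jx median was 2.04, without that array it was 1.25, and 0 of 10 members were negative in either case, so the BI6Jx values turn on that array. The BI6Jx values then ran from 0.51 (Clps) to 2.47 (Amy1) with the sign turned and from 0.28 (Clps) to 1.73 (Amy1) without the array. In C3H 2 were negative and 8 positive (median 0.18, all probes 55.9%). B6.C had a median of -0.36 with arrays 50 and 53 turned, with 9 of 10 members negative, and -0.77 without them, with 10 of 10 negative. The mean over Cy5 arrays and the turned mean over Cy3 arrays had the same sign for 10 of 10 members in B6.C, 7 in BalbxJ, 6 in DBA/2J, 4 in A/J, 3 in C3H and 2 in BI6Jx. These counts have the signs as labelled, and no share over all probes was taken. In B6.C and BI6Jx they depend on arrays 50, 53 and 97. With those signs turned, the orientation means of Prss1 had opposite signs in B6.C and the same sign in BI6Jx. Nothing is read from the order of the strains.

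On many single arrays the members lay close together. The median of the members on an array ran from -3.99 on array 46 of A/J, -3.73 on array 97 of BI6Jx and -2.80 on array 45 of A/J up to 1.81 on array 96 of BI6Jx and 2.55 on array 88 of A/J. On array 46, 7 of 8 measured members were among the lowest 1% of all probes, and the highest of the 8 stood at the 1.51st percentile. On array 45 all 8 were among the lowest 5%, and on array 97, 6 of 10 were among the lowest 1%. On array 88, 5 of 8 were among the highest 1%, and Prss2 at 4.53 was the highest of all 4045 named probes with a value. The lowest 20 named probes of arrays 45, 46 and 97 held 8 genes of the acinar lists each. Those lists hold the 10 members and 24 others, among 6512 genes with a symbol. These arrays were picked for their extreme member medians. On arrays 85, 86, 87 and 90 of A/J neither the lowest 20 nor the highest 20 held any such gene. With its sign turned, array 97 would have a member median of 3.73, above array 88. Within A/J, arrays 46 and 88 lay on opposite sides of 0 with signs as labelled, and the direction of array 88 is not settled.

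Every measured member lay on the same side of 0 on 11 of 38 arrays. The B cell, adipose and islet lists were set beside them on arrays 46, 45, 97 and 88, where their medians lay nearer to 0 than that of the members. Those arrays were picked for their extreme member medians, so nothing is read from that order. On some other arrays the islet list lay further from 0 than the members, such as 2.34 beside -0.88 on array 35 of BalbxJ. The median of the B cell genes was 0.07 on array 46, 0.25 on array 45, -0.36 on array 97 and -0.18 on array 88, and over all arrays it ran from -0.75 to 0.74. The adipose genes gave -0.28, -0.17, -0.15 and 0.47 on those 4 arrays. The islet genes gave 0.16, 0.03, 0.63 and -0.92, and their list median ran from -1.18 to 2.34 over arrays. The acinar genes outside the members had medians of -1.88, -2.44, -2.36 and 1.68 there. That list was drawn up with earlier results of these arrays known, so nothing is read from its place beside the other lists. All measured genes of a list lay on the same side on 2 arrays for the other acinar list (24 genes with a probe), 3 for islet (14), 8 for duct (8), 1 for B cell (12) and 0 for adipose (10). On array 96 the duct list had a median of 2.39, beside 1.81 for the members. The duct list was thin, with a median of 20.5 arrays with a value per gene, so few genes make up its count. Whether any pancreas was carried into the spleen samples, and how much, was not tested.

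**Figure D3:**
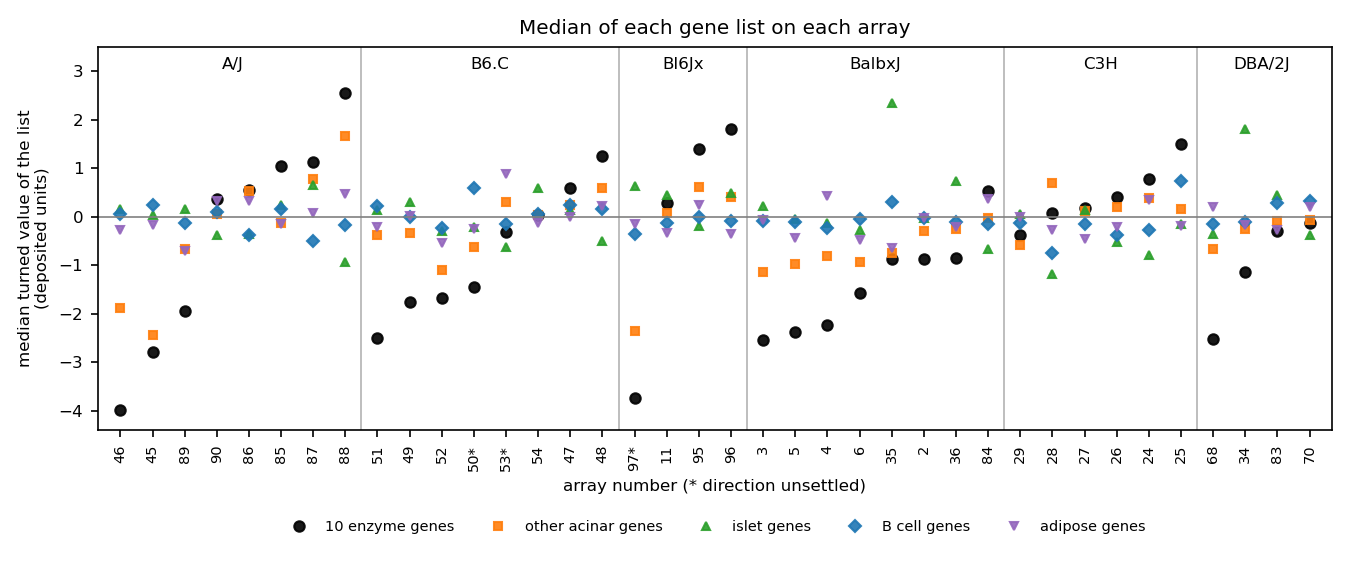
Median turned value (deposited units) on each array of the 10 enzyme genes and of the other acinar, islet, B cell and adipose lists, with arrays grouped by strain and ordered by the enzyme median. The enzyme median spans -3.99 to 2.55, the other acinar list -2.44 to 1.68 and the islet list -1.18 to 2.34. The adipose list spans -0.70 to 0.88 and the B cell list -0.75 to 0.74. Of the lists not drawn, duct spans -3.30 to 4.26, red cell -1.65 to 1.29 and T cell -0.77 to 1.09.

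Taken in order of number and with each array used once, 14 pairs of neighbouring arrays of a strain carried opposite dyes. The labels do not name the partners of a dye exchange, so that these arrays share mice is not known. Over these pairs 84 of 121 member values had the same turned sign on both arrays, or 69.4%, beside 40.8% over all probes. The genes were chosen with the contrast on these arrays known, and member values on an array are alike rather than independent. Nothing is therefore read from the difference between the shares. Without the pairs that hold array 50 or 53 it was 70 of 103 member values (68%, all probes 40.8%), and with the signs of those arrays turned 74 of 121 (61.2%, all probes 43.3%). The share varied between pairs: it was 6 of 6 for arrays 45 and 46 of A/J, 10 of 10 for arrays 49 and 50 (0 of 10 with array 50 turned) and 9 of 9 for arrays 51 and 52 of B6.C, and 7 of 7 for arrays 4 and 5 of BalbxJ. It was 2 of 10 for arrays 89 and 90 of A/J and 0 of 8 for arrays 28 and 29 of C3H. By gene, Cel had the same sign in 11 of 12 pairs and Clps in 9 of 10, against 6 of 11 for Pnlip and 7 of 13 for Try4.

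The average of the unturned mean over Cy5 arrays and the unturned mean over Cy3 arrays holds what does not turn with the dyes, and it was not used to choose the genes. With strains as units, limma with Benjamini-Hochberg adjustment called 0 of 14513 probes for such a dye effect (0%) and 0 of 10 members, with 3518 probes (24.2%) at an unadjusted p under 0.05. Of the members only Pnlip was at an unadjusted p under 0.05, with a dye effect of 1.23 (SE 0.44), positive in 5 of 6 strains, at an adjusted p of 0.139. Its strain dye values were 3.21 in BI6Jx, 2.32 in BalbxJ, 1.26 in DBA/2J, 0.62 in C3H, 0.21 in A/J and -0.23 in B6.C. With arrays as units and dye as a covariate, limma called Pnlip (1.15, SE 0.37, adjusted p = 0.0158) as 1 of 10 members and 4497 probes (31.0%), of which 21.4% of all probes were on the positive side. That fit treats arrays that may share mice as independent. For the other 9 members the dye effects over strains lay between -0.32 (Try4) and 0.33 (Rnase1), with adjusted p from 0.362 to 0.962. Across probes, the unturned means of the 2 orientations correlated at r = 0.635 over 14513 probes as deposited, given as a description.

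The strains differed in this measure as well. In BI6Jx the dye value was positive for 9 of 10 members, with a median of 1.16 and Pnlip (3.21), Cel (2.37) and Rnase1 (1.90) at the top, whereas B6.C had 0 of 10 positive, from -0.69 to -0.11. The BI6Jx count rests on array 97: with its sign turned the dye value was positive for 3 of 10 members (median -0.92), and without the array for 3 of 10 (median -0.38). Those 3 were Pnlip (1.93 turned, 3.13 without the array), Cel (0.27 and 1.31) and Rnase1 (1.02 and 1.56). B6.C had 0 of 10 positive also with arrays 50 and 53 turned or left out. The share of all probes with a positive dye value was not counted by strain, so these counts are not read as particular to the members. The Cel dye value of C3H, -3.80, came from arrays 28 and 29 named above. Pnlip, Cel and Rnase1 had positive dye values also in DBA/2J (1.26, 0.82 and 1.17) and BalbxJ (2.32, 1.26 and 0.42).

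**Figure D4:**
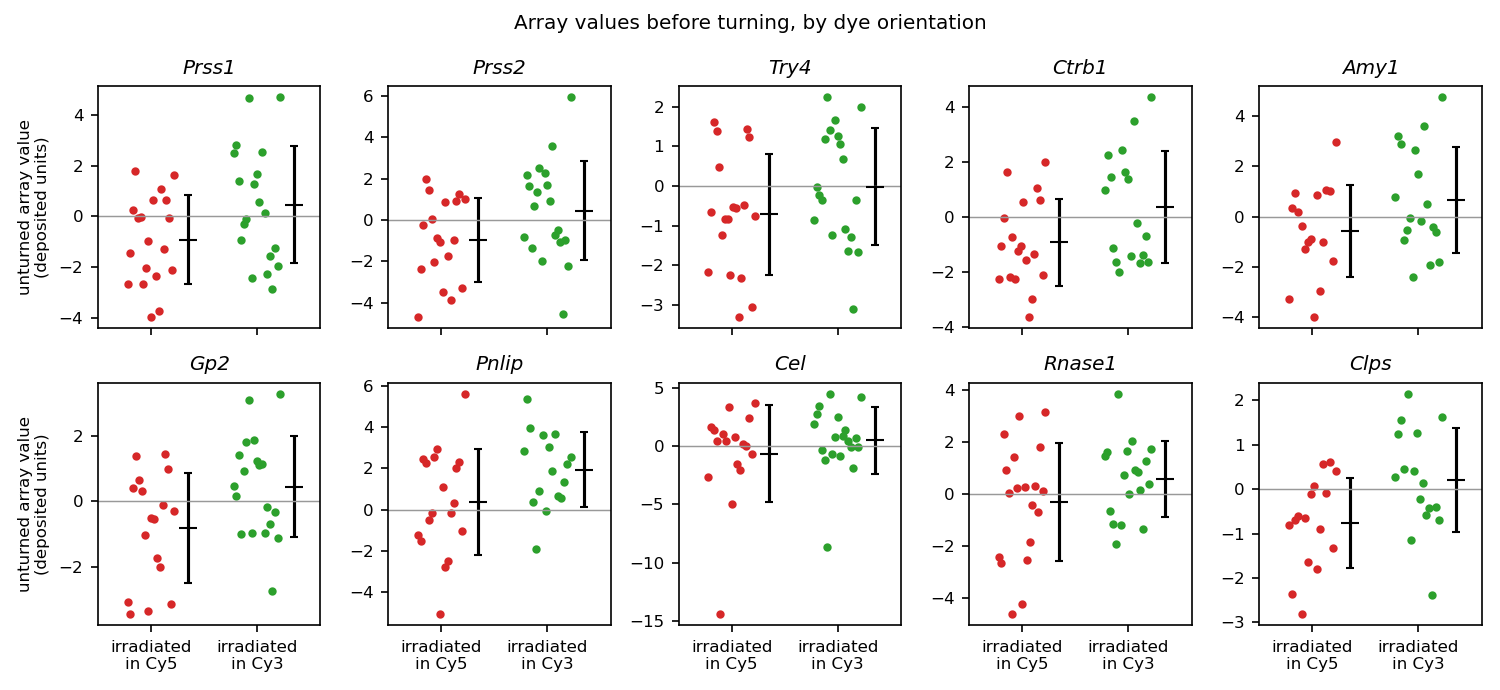
Unturned array values (deposited units) of each of the 10 genes on arrays with irradiated RNA in Cy5 (left) and in Cy3 (right), 1 dot per array, with mean and SD as black bars and a scale of its own for each gene. Pnlip is positive on average in both orientations (0.37 and 1.93), the other 9 genes have a negative Cy5 mean, and Cel holds the far points of -14.4 and -8.68.

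Over arrays the members fell into groups of unequal likeness. Pearson correlations of their turned values ran from 0.04 (Try4 and Cel, 36 arrays) to 0.92 (Prss1 and Amy1, 33 arrays) over 45 pairs, with a median of 0.60. The trypsinogens, Ctrb1, Amy1 and Gp2 correlated with a median of 0.81 (15 pairs), and Pnlip, Cel and Rnase1 with a median of 0.84 (3 pairs). Between both groups the median was 0.42 (18 pairs, at most 0.61). Cel enters these values with its far points on arrays 28 and 29 of C3H. By Spearman rank correlation Cel stood at 0.65 with Amy1 (Pearson 0.42), 0.61 with Prss1 (0.40) and 0.57 with Ctrb1 (0.43). With Prss2 it stood at 0.55 (0.31), with Gp2 at 0.47 (0.23) and with Try4 at 0.20 (0.04). The groups were drawn after the values had been seen. On Cy5 arrays the medians were 0.78 for the first group, 0.88 for the second and 0.47 between them. On Cy3 arrays they were 0.84, 0.79 and 0.49. These are parts of the arrays from which the groups were drawn, so nothing is read from that order. On Cy5 arrays Pnlip stood at 0.86 with Amy1, 0.77 with Ctrb1, 0.74 with Prss1, 0.70 with Prss2, 0.66 with Gp2 and 0.49 with Try4. On Cy3 arrays the same pairs gave 0.54, 0.48, 0.54, 0.47, 0.36 and 0.19. Within the first group, Try4 was closest to Gp2 (0.89) and Prss2 (0.85) and less close to Prss1 (0.65). The Prss1 and Try4 stretches printed above were the more alike when aligned without gaps from the annotated starts, where Prss2 is out of step. Clps lay between, at 0.71 with Prss1, 0.68 with Cel and 0.32 with its partner Pnlip. All points of these correlations share the array, its centring and its dye, and no test was made.

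**Figure D5:**
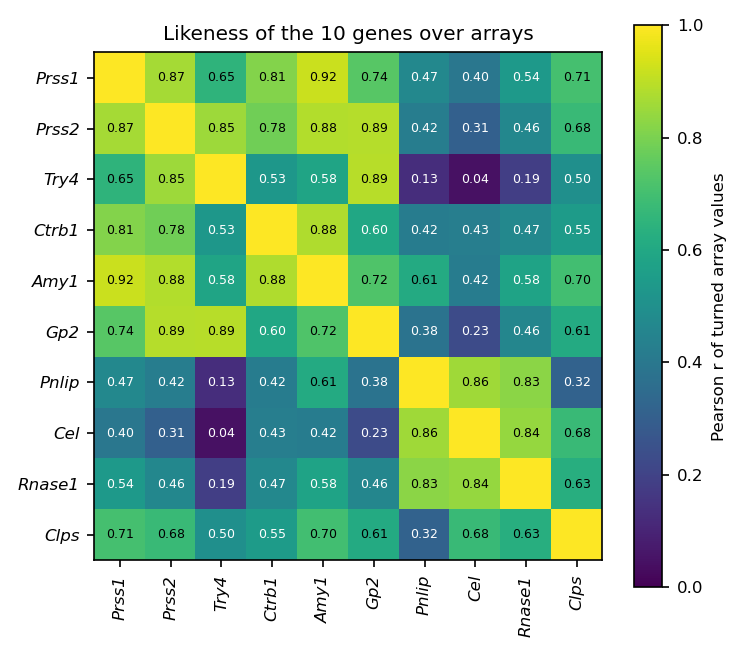
Pearson r over arrays between the turned values of each pair of the 10 genes, by colour and printed in each cell. The block of Prss1, Prss2, Try4, Ctrb1, Amy1 and Gp2 and the block of Pnlip, Cel and Rnase1 have higher values (medians 0.81 and 0.84) than the cells between them (median 0.42).

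Among 5296 genes with values on enough arrays, those whose turned values were most like the median of the members were Dmbt1 (r = 0.93 over 29 arrays), Mep1a (0.91 over 37), Cox7a2l (0.89 over 35), Kcnh2 (0.89 over 36), Gaa (0.88 over 37), 2210010C04Rik (0.88 over 37), Lect2 (0.87 over 30), Mlst8 (0.87 over 34), Cyp3a16 (0.86 over 32) and Uba2 (0.86 over 37). The 99th percentile of r over the genes compared was 0.68 and the median -0.03. Of these, Dmbt1, a mucosal glycoprotein, and 2210010C04Rik, a trypsin-like gene, stood in the list of other acinar genes. Among the rest, Mep1a is a metalloprotease, Cox7a2l a mitochondrial protein, Kcnh2 a potassium channel, Gaa a lysosomal glucosidase and Cyp3a16 a cytochrome of the liver. Their array values spanned ranges of the same order, from -4.73 to 2.82 for Kcnh2 and from -3.37 to 1.73 for Gaa. Whether these probes read the named transcripts was not tested.

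The other genes of the acinar programme were taken from a list of 46, of which 24 had a probe and 13 passed the filter on arrays. Of these 13, 12 had a negative mean over strains and 1 a positive mean, with a list median of -0.23 beside -0.00675 over all probes. The lowest were Reg1 (-0.61), a secreted regenerating protein, 2210010C04Rik (-0.50), Reg3a (-0.33) and Prss3 (-0.29), a trypsinogen. The highest were Bhlha15 (0.13), the factor that shapes the secretory apparatus of acinar cells, and Cela3b (-0.08), an elastase. Correlation with the median of the members was 0.81 for Reg1 (32 arrays), 0.77 for the phospholipase Pla2g1b (37 arrays) and 0.58 for the chymotrypsin-like Ctrl (38 arrays), against -0.06 for Bhlha15 (23 arrays) and 0.05 for Reg3b (32 arrays). The zymogen granule gene Cuzd1, named here after its values were seen, was the lowest named probe on array 29 of C3H (-19.0) and the highest on array 48 of B6.C (12.0). Irradiated RNA carried Cy5 on array 29 and Cy3 on array 48. Both values were thus negative before turning and point opposite ways only through the dye orientation. Cuzd1 was not among the 13 genes that passed the filter. The islet list had 2 negative and 6 positive means among 8 tested, from Ins1 (-0.22) to Ins2 (0.30), the insulin genes. Duct genes had 2 tested, both positive, Spp1 (0.10) and Cldn4 (0.12). Adipose genes had 6 negative and 2 positive, from Car3 (-0.31) to Lipe (0.35). These lists were drawn up with earlier results of the arrays known and were not tested as sets.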

How the data were processed

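The authors deposited 1 table of signed values, treated here as a score, for 23232 spots on each of 38 arrays. Per the paper's methods, poor and weak spots were removed, local background was subtracted and Lowess was applied within arrays. The sources used here give neither scale, log base nor direction, nor whether Lowess had been applied to these values. Array medians as deposited ran from -3.16 to 3.95, and 10941 to 19860 of 21618 probes had a value on an array. Precision is limited by how many arrays there are. Blank, buffer and control spots were left out, and spots of a probe were averaged. Symbols came from RefSeq transcripts (GRCm38.p6), without the version.

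Python 3.11.15 and R 4.3.3 with limma 3.58.1 were used. A probe was tested if 19 or more arrays held it, with each strain represented in both dye orientations. limma tested 6 strain values against 0 with Benjamini-Hochberg adjustment, a step tested on simulated data. The members and all lists were chosen with earlier results of these data known. The members, the 4 lowest and 2 highest other acinar genes, the lowest and highest gene of the islet, duct and adipose lists and the 10 genes most like the members were named by rule, and the other acinar genes whose correlations are given were chosen after their values were seen. The labels' strains BalbxJ, BI6Jx and C3H are taken here to be the Balb/C, C57Bl6/J and C3H/HeJ of the paper, which also gives a younger age. Alternatives changed centring, scale, the unit of replication, the filter, the direction of 3 arrays, and which strains, arrays and dyes entered. Proteins and probe sequences were not used here. p-values measure the spread between strains, or between arrays in the fit with arrays as units.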

Additional observations from a re-analysis of the deposited data

Results flagged for a closer look

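Dixon's test at the 95% level was applied to the highest and lowest value of each gene, and of the median of the 10 genes, in each strain with at least 4 arrays, which made 63 groups of arrays. By chance about 1 in 20 such groups has an array marked in this way, and 4 were. In BalbxJ, array 84 stood above the other 7 arrays for Prss1 at 2.27 (others -2.82 to -0.99) and for Ctrb1 at 1.68 (others -2.26 to -0.97). In C3H, array 29 stood below the other 5 arrays for Cel at -14.4 (others 0.34 to 8.68) and for Rnase1 at -4.62 (others 0.05 to 1.94).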

How the results depend on the processing

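The count of probes called for irradiated against sham was 31 with values as deposited, against 0 otherwise (0 to 0 with each array left out, and 0 with each strain left out). The count called for a dye effect was 4497 with arrays as units, 1887 without strain B6.C and 2041 without strain C3H, against 0 otherwise (0 to 0 with each array left out). Members called for a dye effect numbered 1 with arrays as units (Pnlip) and 1 without strain C3H (Try4, -0.61, adjusted p = 0.0467 from limma, negative in 5 of 5 strains), and 0 to 0 with each array left out. Beside them stood 31.0% of all probes with arrays as units and the 2041 probes without strain C3H, whose share was not computed. Nothing is read from 1 of 10 members in either setting. The range of adjusted p for Pnlip over strains left out was 0.0665 to 0.327. The Pnlip mean was 0.69 from Cy5 arrays and -1.77 from Cy3 arrays. The median over members kept its sign, from -0.75 without BI6Jx replicate 2 to -0.38 without BI6Jx replicate 4 (array 97) and from -0.74 to -0.41 with each strain left out. Members with a negative mean numbered 8 to 10 with each array left out, where 8 and 9 count all the members that could still be tested, and 8 of 10 from Cy5 arrays. The median correlation between members was 0.62 to 0.73 in 7 settings added after the data were seen, against 0.60. The cause of these differences was not tested. No paired analysis was possible because the labels do not say which arrays share mice.

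Centred values have array SDs from 0.616 to 2.35, so a given value does not have the same rank on every array. Unknown scale, unknown direction and at most 4 arrays per orientation and strain limit what the values can show.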
